A study of Mus musculus with 6 samples.

Results

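A set of 49 genes that fold, modify and export procollagen was examined in RNA from mouse Achilles tendon, with 3 libraries labelled Achilles tendon amputation and 3 labelled sham. The 49 genes were chosen by name from knowledge of the pathway, with earlier results of these data known, out of 21878 genes in the deposited tables, and all 49 were found there. The library titles abbreviate the injured group as HO, and the series title places the comparison in a study of trauma-induced heterotopic ossification, in which bone forms in soft tissue. The labels gave the tissue and the operation, and no strain, age, sex, genotype or time after surgery; both groups were Achilles tendon tissue after an operation. Nor do they tie the replicates to separate animals, and the p-values therefore describe only the spread among these 6 libraries, part of which may be technical.

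Fibrillar collagen is made in the endoplasmic reticulum (ER). Its chains are hydroxylated on prolines and lysines, some hydroxylysines are glycosylated, and the chains are held apart by chaperones until they fold into a triple helix. The folded procollagen leaves in large carriers built with the COPII coat, while chaperones that escape are returned by KDEL receptors. In humans, loss of several of these genes, among them SERPINH1, FKBP10, CRTAP, P3H1, PPIB, TMEM38B, CREB3L1 and SPARC, causes brittle bone disease (osteogenesis imperfecta). A tendon fibroblast that deposits matrix is a heavy user of this pathway, and sensors of ER stress adjust its capacity to the load.

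The libraries held 28410231, 30715022 and 31346730 counts in amputation 1 to 3 and 23916839, 26176650 and 27140226 counts in sham 1 to 3. Levels are given as CPM, counts scaled to a common library size. By the library totals, 1 read was worth 0.0319 to 0.0418 CPM. All 49 genes passed the filter on low counts. The 5 tenocyte marker genes summed to 5204 to 12647 CPM in amputation libraries and to 1829 to 4522 CPM in sham libraries, and none of these markers was at 0 in all libraries. Skeletal muscle transcripts (30 genes) took 1.68%, 0.531% and 16.1% of the counts in amputation 1 to 3, against 20.2%, 19.7% and 21.9% in sham 1 to 3. Amputation 3 therefore stood apart from the other amputation libraries, with a muscle share closer to that of the sham group. In whole tissue, fewer cells of a type and less RNA per cell cannot be told apart.

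Most of the collagen folding and export genes were higher in the amputation group. By edgeR's quasi-likelihood test, at a Benjamini-Hochberg adjusted p under 0.05 over 14561 genes, 33 of the 49 were higher, 67.3% of them, against 20.4% of all tested genes. The test called 3 lower (P3h2, Colgalt2 and Ddit3), 6.12% of the 49, against 12.3% of all tested genes, and 13 were not called. The median log2 fold change of the 49, amputation over sham, was 1.27, against -0.02 for all tested genes, and 41 values were positive. Every amputation library lay above every sham library for 39 of the 49 genes (28.7% of all tested genes), and every one lay below for 6 (26.1% of all tested genes). A called increase of at least 2-fold was seen in 29 members (12.5% of all tested genes) and a called decrease of that size only in P3h2 (6.91% of all tested genes).

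The class medians were all positive. The median log2 fold change was 2.12 for the collagen chaperone and peptidyl-prolyl isomerases, 2.0 for the prolyl 3-hydroxylase complex and 1.97 for the retrieval receptors. It was 1.33 for the lysyl hydroxylases and galactosyltransferases, 1.24 for the general chaperones and disulfide isomerases, 1.1 for prolyl 4-hydroxylase, 0.56 for the ER stress transducers and 0.48 for the ER exit genes. The remaining class held only Sparc (2.96) and Tmem38b (-1.39), so its median of 0.78 describes neither gene. No test was made between these classes.

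**Figure D1:**
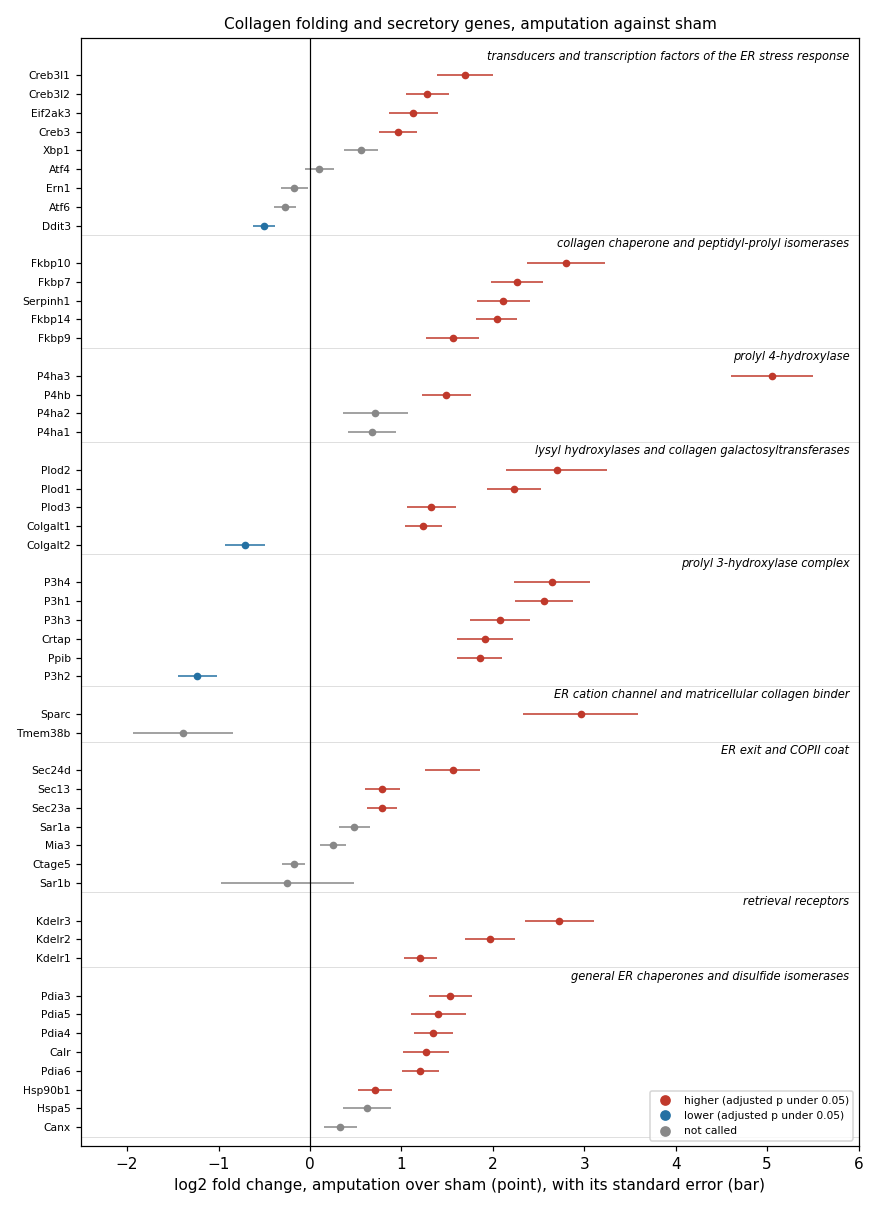
Log2 fold change of each of the 49 genes, amputation over sham, with its standard error as a bar, grouped by role; red points passed the test as higher, blue as lower and grey did not pass. P3h2, Colgalt2 and Ddit3 are the blue points, and P4ha3 lies farthest to the right at 5.05.

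The size of the increase differed among the amputation libraries. Of the 33 genes called higher, amputation 2 was the highest amputation library for 33 and amputation 3 the lowest for 32. The median of the 49 genes, as log2 CPM minus the mean of the sham libraries, followed the same order, as the plot of class medians shows. The order of the amputation libraries also matched their muscle share, which was lowest in amputation 2 and highest in amputation 3. Without amputation 3, 38 members were higher and 6 lower, and with the summed muscle list (log2 CPM) as a covariate 26 were higher and 1 lower. Without sham 2, 18 were higher and 1 lower, and without sham 3, 21 were higher and 2 lower. Without sham 1, amputation 1 or amputation 2, the counts were 23, 29 and 31 higher, with 1 lower each time. Under the 17 alternative settings, which include these, 18 genes stayed called higher and 1 lower (P3h2). The 18 were Serpinh1, Fkbp7, Fkbp10, Fkbp14, P4ha3, Plod1, Colgalt1, P3h1, P3h3, P3h4, Crtap, Ppib, Pdia3, Pdia4, Pdia6 and the 3 KDEL receptor genes.

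**Figure D2:**
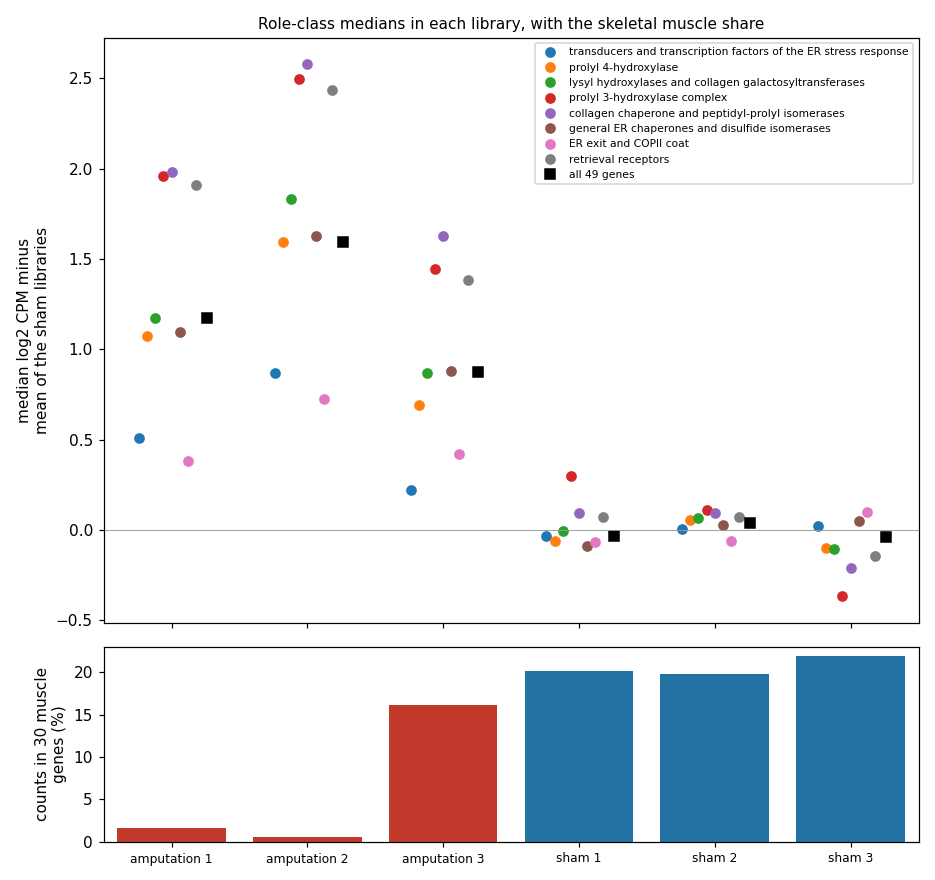
Upper panel: for each library, the median over the genes of a role class of log2 CPM minus the mean of the sham libraries (coloured points) and the median over all 49 genes (black squares). Lower panel: percent of counts in 30 skeletal muscle genes; among the amputation libraries, medians are highest in amputation 2, with 0.531% of counts from muscle genes, and lower in amputation 3, with 16.1%.

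Levels per gene length (FPKM) show which members dominated. Sparc, a secreted collagen-binding glycoprotein of the matrix, was the most abundant, at 5069.7, 6763 and 2774 FPKM in amputation 1 to 3 and 598, 738 and 539 FPKM in sham 1 to 3. In the amputation group the collagen chaperone Serpinh1 came next, at a mean of 293 FPKM, close to P4hb at 286 and Calr at 285 FPKM. In the sham group Serpinh1 averaged 67.6 FPKM and stood below Calr (118 FPKM), P4hb (101 FPKM), Hspa5 (98.3 FPKM), Hsp90b1 (89.6 FPKM), Fkbp9 (74.7 FPKM) and Atf4 (73.1 FPKM). The least abundant member in the amputation group was Colgalt2, at a mean of 2.30 FPKM, and in the sham group P4ha3, at 0.53 FPKM.

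Promoter sequences are shown for the members that hold a known ER stress element, because the groups of genes with and without these letters can then be read against their fold changes. RefSeq promoters of build GRCm38.p6, each from 250 bases before to 50 bases after an annotated start of a gene, were matched for 40 of the 49 genes. The letters CCAAT and CCACG with 9 bases between them, known as the ER stress element and bound by ATF6 with NF-Y, were searched on both strands and were found in 5 of the 40 genes, against 0.137% of the 27025 genes with a promoter in the RefSeq table. The 5 were Hspa5, Calr, Hsp90b1, Canx and Pdia6, all of them general chaperones or disulfide isomerases. In these windows, written 5′ to 3′ on the gene's strand, capitals mark the match with its spacer.
Hspa5, chr2:34771995-34772073, plus strand: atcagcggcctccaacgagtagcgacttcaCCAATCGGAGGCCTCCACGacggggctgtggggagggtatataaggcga
Calr, chr8:84847045-84847123, minus strand, match on the opposite strand: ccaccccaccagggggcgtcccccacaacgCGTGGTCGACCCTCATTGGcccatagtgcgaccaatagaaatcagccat
Hsp90b1, chr10:86705608-86705686, minus strand: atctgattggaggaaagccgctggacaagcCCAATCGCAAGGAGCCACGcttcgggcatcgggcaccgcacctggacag
Hsp90b1, chr10:86705503-86705581, minus strand, match on the opposite strand: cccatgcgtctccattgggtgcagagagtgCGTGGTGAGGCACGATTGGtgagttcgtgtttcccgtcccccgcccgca
Canx, chr11:50325770-50325848, minus strand: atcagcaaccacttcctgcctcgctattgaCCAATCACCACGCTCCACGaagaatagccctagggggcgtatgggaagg
Pdia6, chr12:17266461-17266539, plus strand: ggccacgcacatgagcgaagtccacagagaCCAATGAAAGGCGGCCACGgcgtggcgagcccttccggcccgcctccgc

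The 5 genes with this element had log2 fold changes of 1.27 (Calr), 1.20 (Pdia6), 0.71 (Hsp90b1), 0.62 (Hspa5) and 0.33 (Canx), and the last 2 did not pass the test. The other genes of that class, which were not among the 5, had larger values: Pdia3 (1.53), Pdia5 (1.41) and Pdia4 (1.35). A second element, TGACGTGG, which ATF6 and XBP1 can bind, was present in 0.714% of all genes with a promoter and in 3 of the 40 genes, Sec24d, Kdelr3 and Sec23a. In Sec23a it lay after the start, at bases 7 to 14 of the transcript. The windows of Sec24d and Kdelr3 are given here, again with the match in capitals. The Sec24d gene is annotated from base 123264801 of chromosome 3. Its window therefore lies inside the annotated gene, at a later start, and not before the gene's first base.
Sec24d, chr3:123267440-123267495, plus strand: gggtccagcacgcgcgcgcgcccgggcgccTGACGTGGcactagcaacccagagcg
Kdelr3, chr15:79516348-79516407, plus strand, match on the opposite strand: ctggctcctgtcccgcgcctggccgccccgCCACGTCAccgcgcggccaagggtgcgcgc

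The log2 fold changes of these genes were 2.73 (Kdelr3), 1.56 (Sec24d) and 0.79 (Sec23a). The core CCACG, which is part of both elements, was present in 28 of the 40 genes, 70% of them, against 35.5% of all genes with a promoter. The cyclic AMP element TGACGTCA (2.03% of genes) and the variant ATTGG and CCACG with 1 base between them (0.0444% of genes) were found in none of the 40. These matches describe letters in the windows and are not evidence of binding. Because the members were chosen from knowledge of the pathway, the shares beside those of all genes are a description and not a test.

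Among the transducers and transcription factors of the ER stress response, the CREB3 family and Eif2ak3 rose, Ddit3 fell, and Xbp1, Atf4, Atf6 and Ern1 did not pass the test. Of 9 genes, 4 were higher (Creb3l1, Creb3l2, Creb3 and Eif2ak3), 1 was lower (Ddit3) and 4 were not called. Across all tested genes 20.4% were called higher and 12.3% lower, so the 1 lower call is near what 12.3% of 9 genes gives. Creb3l1, also called OASIS, is an ER-anchored factor that activates collagen I genes in bone and fibroblasts. It had 127, 163 and 74.6 CPM in amputation 1 to 3, against 44.1, 37.5 and 31.3 CPM in sham 1 to 3. All amputation libraries lay above all sham libraries, with the smallest gap at amputation 3. The log2 fold change was 1.69 ± 0.30 (SE, n = 3 per group), with an adjusted p of 0.0108 in edgeR's quasi-likelihood test. Creb3l2, a related factor that drives COPII genes in chondrocytes, had 247, 288 and 167 CPM in amputation libraries, against 109, 94.0 and 85.9 CPM in sham libraries. The groups did not overlap, and its log2 fold change was 1.28 ± 0.23 (adjusted p = 0.0113, edgeR). Creb3 (log2 0.96 ± 0.20) and Eif2ak3, the kinase PERK that slows translation under ER stress (1.13 ± 0.26), were also higher.

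Ddit3, the factor CHOP that is induced by prolonged ER stress, had 11.6, 11.4 and 10.03 CPM in amputation libraries, against 14.99, 15.9 and 15.8 CPM in sham libraries. Every amputation library was below every sham library, by a small margin. Its log2 fold change was -0.50 ± 0.12 (adjusted p = 0.0255, edgeR). Xbp1, which codes for the factor activated by IRE1, had 140.3, 180.5 and 115 CPM in amputation libraries, against 93.2, 99.2 and 104 CPM in sham libraries. Its groups did not overlap, but its log2 value of 0.56 ± 0.19 did not pass the test (adjusted p = 0.0635, edgeR). Atf6 stood at -0.27, Ern1, the IRE1 sensor, at -0.17 and Atf4 at 0.10, none of them called. In this class, Creb3l1 was not called without sham 2 (log2 1.67), nor Creb3l2 without sham 2 (1.24) or sham 3 (1.17). Creb3 lost its call with any sham library left out (0.91 to 0.98), and Ddit3 (-0.54 to -0.51) and Eif2ak3 (0.95 to 1.27) lost theirs when any sham library, amputation 1 or amputation 2 was left out. With the muscle covariate, Creb3 (0.47), Eif2ak3 (0.52) and Ddit3 (-0.63) were not called. DESeq2's Wald test called Xbp1 higher. Without amputation 3, Xbp1 was called higher (0.70) and Atf6 lower (-0.33).

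The collagen chaperone and the peptidyl-prolyl isomerases rose as a whole class, 5 of 5. Fkbp14, an ER isomerase whose loss in humans causes a form of Ehlers-Danlos syndrome, had 71.0, 98.7 and 55.4 CPM in amputation libraries, against 19.4, 18.2 and 17.0 CPM in sham libraries. The lowest amputation library stood well above the highest sham library. The log2 fold change was 2.04 ± 0.23 (adjusted p = 0.00401, edgeR). Fkbp7 had 44.5, 69.2 and 36.7 CPM in amputation libraries, against 10.3, 12.6 and 8.43 CPM in sham libraries, with no overlap and a log2 fold change of 2.27 ± 0.28 (adjusted p = 0.00487, edgeR). Serpinh1 codes for HSP47, the chaperone that binds the procollagen triple helix and keeps it from aggregating. It averaged 772 ± 263 CPM in the amputation group and 178 ± 3.70 CPM in the sham group (SD, n = 3 each), a 4.33-fold difference, with a log2 fold change of 2.12 ± 0.29. Fkbp10, the FKBP65 chaperone that works with lysyl hydroxylase 2, changed most in this class, by log2 2.80 ± 0.43, and Fkbp9 least, by 1.56 ± 0.29. Fkbp9 was not called without sham 2 (1.58) or sham 3 (1.42).

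**Figure D3:**
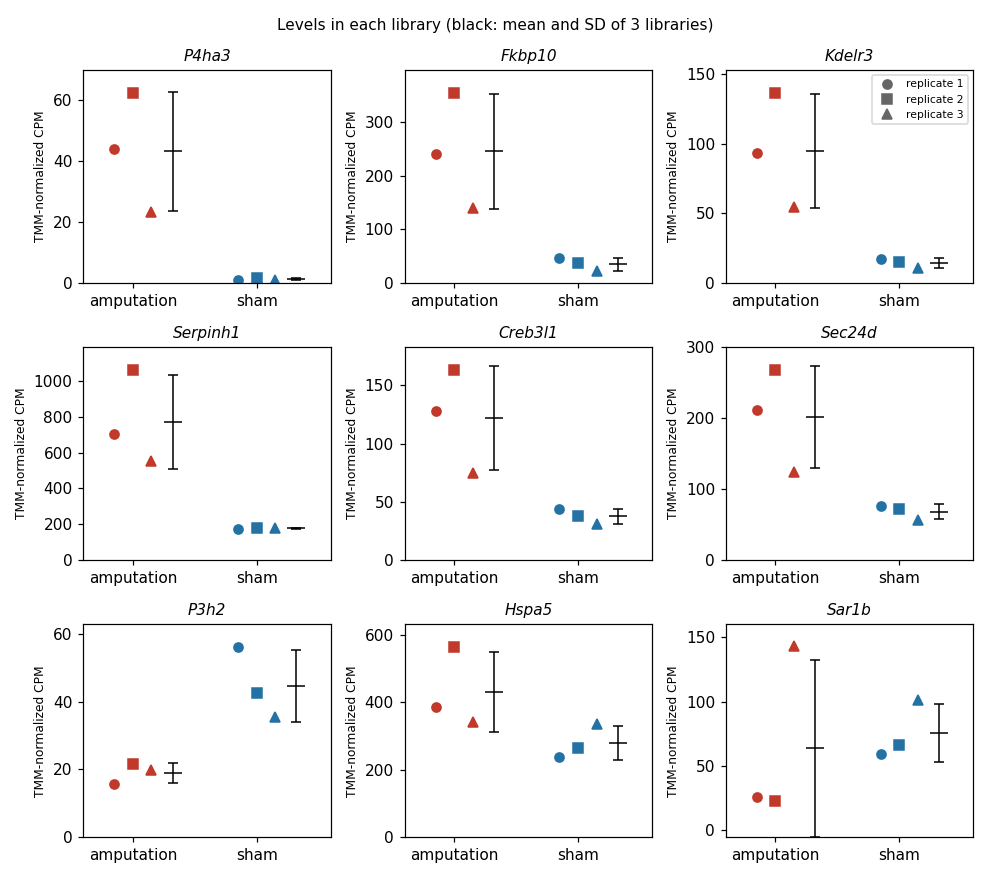
TMM-normalized CPM of 9 genes in each library, amputation in red at the left of each panel and sham in blue at the right, with the mean and SD of 3 libraries in black. The groups do not overlap in 8 of the panels; for Sar1b amputation 1 and 2 lie below the sham libraries and amputation 3 above them.

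Within prolyl 4-hydroxylase, the enzyme that makes the 4-hydroxyproline needed for a stable triple helix, one catalytic subunit changed far more than the others. P4ha3 had 43.7, 62.4 and 23.2 CPM in amputation libraries, against 1.06, 1.70 and 1.11 CPM in sham libraries. The gene was low in every sham library and far higher in every amputation library. Its log2 fold change was 5.05 ± 0.45 (adjusted p = 0.00318, edgeR), a 33.2-fold difference of means and the largest among the 49 genes. P4hb, the shared beta subunit that is also a protein disulfide isomerase, had 685, 958 and 529 CPM in amputation libraries, against 247, 269 and 256 CPM in sham libraries. Its groups did not overlap, and it rose by log2 1.49 ± 0.27 (adjusted p = 0.0108, edgeR). P4ha1, the main alpha subunit of most cells, had 147, 216 and 127 CPM in amputation libraries, against 124, 103 and 78.5 CPM in sham libraries. The groups were only just apart, and the log2 value of 0.68 ± 0.26 did not pass (adjusted p = 0.0869, edgeR). P4ha2 stood at 0.72 ± 0.36 and was not called, with amputation 3 below the sham libraries. P4hb was not called without sham 1 (1.46) or sham 2 (1.5). Without amputation 3, P4ha1 (0.84) and P4ha2 (1.03) were called higher, while with the muscle covariate P4ha2 stood at -0.37.

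All 3 lysyl hydroxylases rose, and the 2 collagen galactosyltransferases changed in opposite directions. Plod1, which hydroxylates lysines of the helix, had 308, 428 and 197 CPM in amputation libraries, against 65.8, 71.3 and 61.6 CPM in sham libraries. Its groups lay far apart, with a log2 fold change of 2.23 ± 0.30 (adjusted p = 0.00562, edgeR). Colgalt1, which adds galactose to hydroxylysine, had 153, 205 and 124 CPM in amputation libraries, against 67.2, 67.6 and 69.3 CPM in sham libraries. It was higher in all amputation libraries, by log2 1.24 ± 0.20 (adjusted p = 0.00819, edgeR). Its paralog Colgalt2 had 10.4, 9.14 and 8.12 CPM in amputation libraries, against 18.9, 15.2 and 11.3 CPM in sham libraries. The amputation libraries were all lower, with sham 3 close to them, and the log2 fold change was -0.71 ± 0.22 (adjusted p = 0.0474, edgeR). Plod2, which hydroxylates the telopeptide lysines used for crosslinks, had 312, 474 and 124 CPM in amputation libraries, against 61.9, 51.4 and 27.0 CPM in sham libraries. It varied most within both groups, and its log2 fold change was 2.70 ± 0.55. Plod3, which also carries glucosyltransferase activity, rose by 1.33 ± 0.27.

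Plod3 lost its call with any of the sham libraries left out (1.27 to 1.34), and Plod2 without sham 2 (2.75), without sham 3 (2.39) and with the muscle covariate (1.27). The call of Colgalt2 lay near the threshold. It was lost with upper quartile scaling (-0.66), with limma-voom (-0.69), on log2(FPKM + 1) (-0.51) and log2(FPKM + 0.1) (-0.67), with the muscle covariate (-0.87), and without amputation 1 (-0.81), amputation 2 (-0.70), sham 1 (-0.53) or sham 2 (-0.73). With upper quartile scaling Ddit3 was not called either (-0.44).

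The prolyl 3-hydroxylase group split into 5 genes that rose and 1 that fell. P3h1 forms a complex with Crtap and Ppib (cyclophilin B) that modifies a single proline in collagen I chains and acts as a chaperone. P3h1 had 119, 179 and 78.6 CPM in amputation libraries, against 23.0, 22.6 and 18.5 CPM in sham libraries. Ppib had 179, 239.8 and 126 CPM in amputation libraries, against 48.6, 54.9 and 47.0 CPM in sham libraries. Neither gene overlapped between the groups. The log2 fold changes were 2.56 ± 0.31 for P3h1 (adjusted p = 0.00476, edgeR) and 1.85 ± 0.25 for Ppib (adjusted p = 0.00571, edgeR). The third member of the complex, Crtap, rose by 1.91 ± 0.31. P3h3 and P3h4, which take part in lysyl hydroxylation of collagen I, rose by 2.08 ± 0.33 and 2.65 ± 0.41.

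P3h2, whose enzyme acts on basement membrane collagen IV, had 15.8, 21.5 and 19.8 CPM in amputation libraries, against 56.1, 42.5 and 35.3 CPM in sham libraries. Every amputation library was well below every sham library, and amputation 3 did not stand apart. The log2 fold change was -1.23 ± 0.21 (adjusted p = 0.00947, edgeR). The 5 higher calls and the 1 lower call of this class were made under each of the 17 alternatives. Annotated exons of P3h2 overlap an antisense gene, and those of Ppib a gene on the other strand.

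Among general ER chaperones and disulfide isomerases, 6 of 8 rose, and Hspa5 and Canx did not pass the test. Pdia3, which folds glycoproteins together with calreticulin and calnexin, had 336, 474 and 273 CPM in amputation libraries, against 123, 129 and 121 CPM in sham libraries. Pdia4 had 127, 163 and 93.4 CPM in amputation libraries, against 48.4, 51.7 and 50.6 CPM in sham libraries. Both lay above sham in every amputation library. Their log2 fold changes were 1.53 ± 0.24 (adjusted p = 0.00719, edgeR) and 1.35 ± 0.21 (adjusted p = 0.00781, edgeR). Pdia5 (1.41 ± 0.30), Calr, the lectin chaperone calreticulin (1.27 ± 0.25), Pdia6 (1.20 ± 0.20) and Hsp90b1, the ER form of HSP90 (0.71 ± 0.19), were also higher.

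Hspa5 codes for BiP, the HSP70 of the ER and the standard readout of the unfolded protein response. It had 386, 565 and 341 CPM in amputation libraries, against 239, 266 and 335 CPM in sham libraries. Amputation 3 and sham 3 were nearly equal, and the log2 value of 0.62 ± 0.26 did not pass (adjusted p = 0.108, edgeR). Canx, the membrane-bound lectin chaperone calnexin, stood at 0.33 and was not called. Without amputation 3, Hspa5 was called (0.77). Calr and Pdia5 were not called with any of the sham libraries left out (1.21 to 1.28 and 1.30 to 1.54), nor Hsp90b1 with any library but amputation 3 left out (0.56 to 0.78). Hsp90b1 (0.49) and Pdia5 (0.72) also lost their calls with the muscle covariate.

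At the ER exit, the cargo-selecting coat subunit Sec24d rose most, and the procollagen receptor Mia3 and its partner Ctage5 did not pass the test. Sec24d had 212, 268 and 125 CPM in amputation libraries, against 76.1, 72.1 and 56.6 CPM in sham libraries. All amputation libraries were higher, with a log2 fold change of 1.56 ± 0.30 (adjusted p = 0.0129, edgeR). Sec23a, its partner in the inner COPII coat, had 148, 180.5 and 146 CPM in amputation libraries, against 87.0, 81.4 and 106 CPM in sham libraries. Its groups were apart by a narrower margin, and it rose by 0.79 ± 0.17 (adjusted p = 0.0166, edgeR). Sec13, of the outer coat, rose by 0.79 ± 0.19. Mia3 (TANGO1), the receptor that loads procollagen into COPII carriers, stood at 0.25, and its partner Ctage5 (cTAGE5) at -0.18, neither called.

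The GTPases that start coat assembly gave a mixed picture. Sar1a had 217, 275 and 208 CPM in amputation libraries, against 154, 169 and 178 CPM in sham libraries. The groups did not overlap, yet the log2 value of 0.48 ± 0.17 did not pass (adjusted p = 0.0701, edgeR). Sar1a was called higher by DESeq2's Wald test and without amputation 3. Sar1b had 25.8, 22.5 and 143 CPM in amputation libraries, against 59.6, 66.3 and 101 CPM in sham libraries. Amputation 1 and 2 lay below the sham libraries and amputation 3 above them, and the log2 value was -0.25 ± 0.73. Without amputation 3, Sar1b was called lower (-1.65), whereas it stood at 0.13 without amputation 1, at 0.14 without amputation 2 and at 1.01 with the muscle covariate, uncalled. In this class Sec24d was not called without sham 2 (1.58) or sham 3 (1.41), and Sec23a was not called without sham 1 (0.75), without sham 2 (0.69) or with the muscle covariate (0.62). Sec13 lost its call without amputation 1 (0.82), with any sham library left out (0.74 to 0.81) and with the muscle covariate (0.34). The 3 higher calls of the class were 0 without sham 2 and 1 without sham 1 or sham 3.

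The KDEL receptors, which return escaped ER chaperones from the Golgi, all rose and were called under each of the 17 alternatives. Kdelr3 had 93.2, 137 and 54.6 CPM in amputation libraries, against 17.4, 15.1 and 10.4 CPM in sham libraries. Kdelr2 had 195, 281 and 136 CPM in amputation libraries, against 54.7, 54.7 and 47.0 CPM in sham libraries. For both, the lowest amputation library exceeded the highest sham library by a wide margin. The log2 fold changes were 2.73 ± 0.38 for Kdelr3 (adjusted p = 0.00593, edgeR), 1.97 ± 0.28 for Kdelr2 (adjusted p = 0.00609, edgeR) and 1.21 ± 0.18 for Kdelr1.

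Sparc had 12257, 18508 and 7703 CPM in amputation libraries, against 1544, 1930 and 1473 CPM in sham libraries. The groups were far apart, and the spread within the amputation group was wide. It rose by log2 2.96 ± 0.62 (adjusted p = 0.0166, edgeR) and was not called without amputation 1 (2.99) or with any of the sham libraries left out (2.85 to 3.06). Tmem38b codes for TRIC-B, an ER potassium channel that supports calcium release. It had 14.6, 12.5 and 50.9 CPM in amputation libraries, against 58.1, 67.0 and 79.6 CPM in sham libraries. All amputation libraries were lower, but amputation 3 lay near sham, and the log2 value of -1.39 ± 0.55 did not pass (adjusted p = 0.0928, edgeR). With the replicate number as a block, Tmem38b was called lower (log2 -1.69, adjusted p = 0.0353, edgeR), as it was by DESeq2's Wald test, limma-voom and both fits on log2 FPKM. Without amputation 3 it stood at -2.33 and was called, and with the muscle covariate it stood at -0.35 and was not.

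Within families, the make-up of the transcripts was compared between the groups as well. Shares were taken of the summed FPKM of each family, so that gene length is accounted for, and 22 shares in 10 families were compared. With 3 libraries against 3, the smallest exact two-sided permutation p is 0.1 (adjusted over the 22 shares, 0.129), so none can pass 0.05. The groups did not overlap in 17 of the 22. For the levels of all tested genes, every amputation library lay above every sham library in 28.7% and below in 26.1%. Shares of the same family depend on each other, so the 22 are not separate observations. P4ha3 made up 24.7%, 24.2% and 19.2% of the prolyl 4-hydroxylase alpha subunits in amputation libraries, against 1.06%, 1.87% and 1.46% in sham libraries. P3h2 made up 5.73%, 5.20% and 10.5% of the prolyl 3-hydroxylase family in amputation libraries, against 47.7%, 44.2% and 48.2% in sham libraries. P4ha3 was thus a trace of its family in sham libraries and a clear minority in amputation libraries, while P3h2 was the largest member in sham libraries and the smallest in amputation libraries (exact two-sided permutation p = 0.1 for both).

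Sec24d made up 56.7%, 62.0% and 43.4% of the 4 Sec24 genes in amputation libraries, against 29.7%, 28.3% and 22.7% in sham libraries. Kdelr3 made up 27.5%, 28.6% and 23.0% of the KDEL receptors in amputation libraries, against 16.9%, 15.1% and 11.6% in sham libraries. Fkbp10 made up 23.96%, 25.5% and 20.4% of the collagen FKBP genes in amputation libraries, against 15.2%, 12.6% and 9.70% in sham libraries. All 3 were higher in every amputation library (exact permutation p = 0.1 each). Fkbp9 remained the largest of its family, with 53.8% to 56.9% in amputation libraries and 69.1% to 72.8% in sham libraries. Plod3 was a smaller part of the lysyl hydroxylases, with 14.2% to 19.5% in amputation libraries and 24.6% to 34.1% in sham libraries, although its own level rose. The share of Sar1a overlapped between the groups (76.1%, 82.2% and 35.4% in amputation libraries, against 49.4%, 49.04% and 39.9% in sham libraries; exact permutation p = 0.4).

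**Figure D4:**
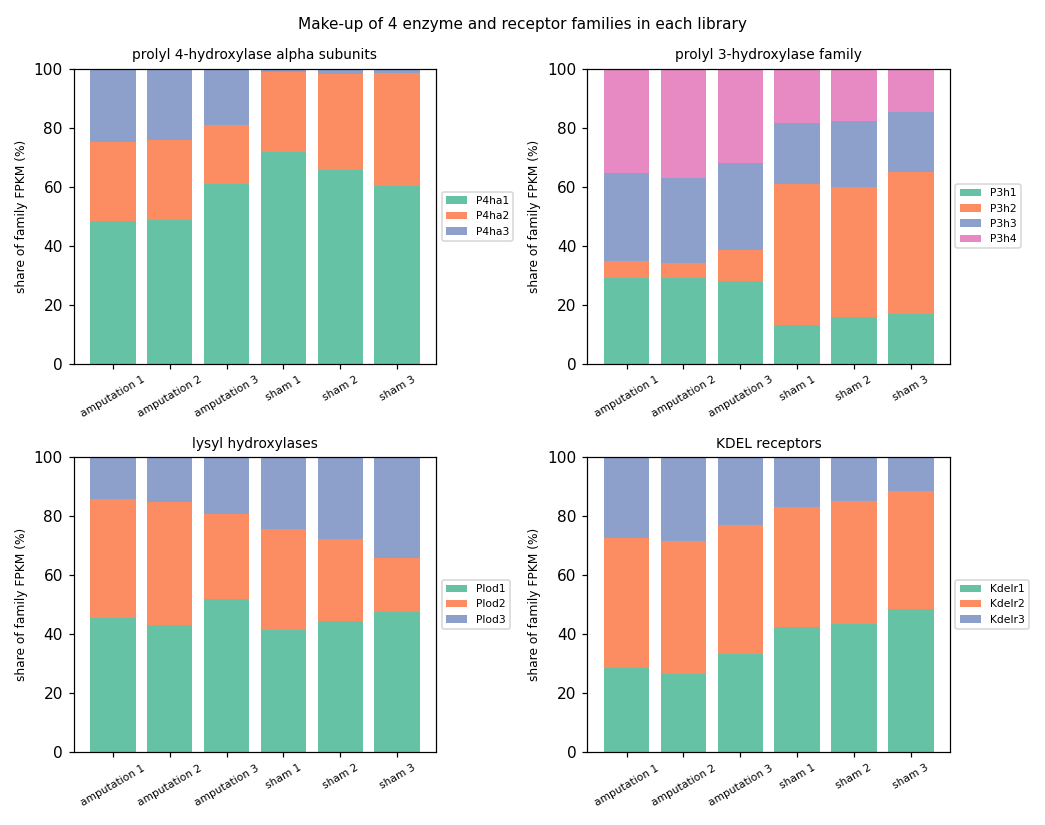
Share of the summed FPKM of 4 families (%) taken by each member in each library, amputation libraries on the left of each panel and sham libraries on the right. P3h2 takes 5.20% to 10.5% in amputation libraries and 44.2% to 48.2% in sham libraries, and P4ha3 appears as a clear band only in amputation libraries.

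The collagen cargo had larger fold changes than most of the genes that fold it. All 8 fibrillar procollagen genes of the list were higher, with a median log2 fold change of 3.67; 5 were higher without sham 1 or sham 3 and 4 without sham 2. Col11a1, a minor fibrillar chain, rose by 4.98 ± 0.63, and Col2a1, the cartilage collagen, by 8.70 ± 1.13. The 8 genes took 15.3%, 17.7% and 6.97% of all counts in amputation libraries, against 1.28%, 1.19% and 0.582% in sham libraries. The 49 folding and export genes took 2.27%, 2.92% and 1.38% in amputation libraries, against 0.561%, 0.600% and 0.528% in sham libraries. Without Sparc, which is itself secreted, they took 0.933%, 1.13% and 0.645% in amputation libraries, against 0.403%, 0.405% and 0.385% in sham libraries. For each count of these 48 genes there were 16.4, 15.6 and 10.8 procollagen counts in amputation libraries, against 3.17, 2.94 and 1.51 in sham libraries. The ratio was higher in every amputation library, by 5.62-fold on average (exact two-sided permutation p = 0.1, the smallest possible).

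**Figure D5:**
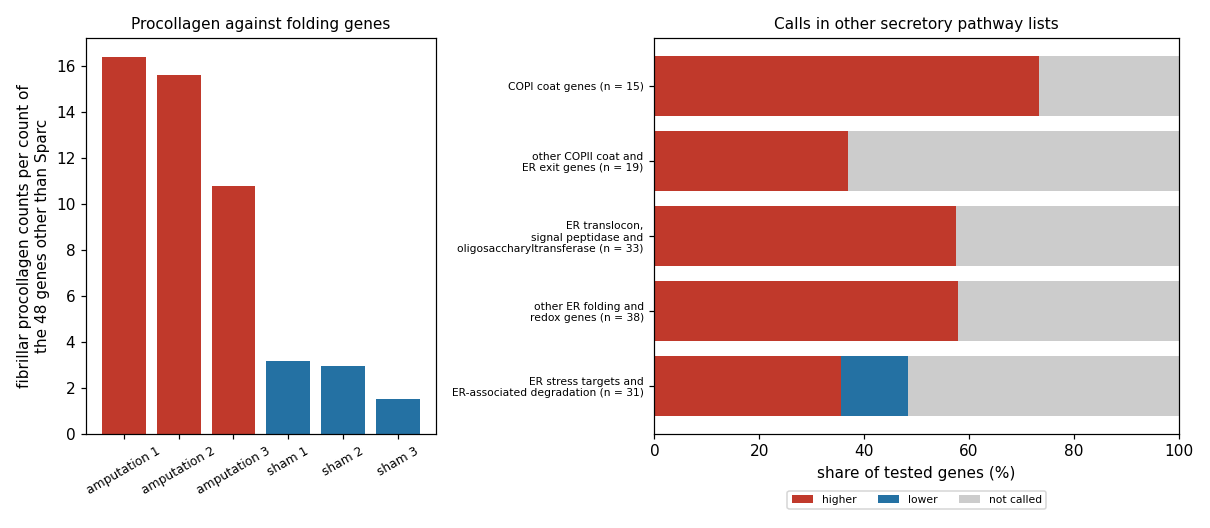
Left: fibrillar procollagen counts per count of the 48 folding and export genes other than Sparc, by library, 10.8 to 16.4 in amputation libraries and 1.51 to 3.17 in sham libraries. Right: percent of tested genes called higher (red), lower (blue) or not called (grey) in 5 further lists of the secretory pathway.

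In the rest of the secretory pathway, calls were mostly higher and median fold changes were smaller than that of the 49 genes. Of 33 genes of the translocon, signal peptidase and oligosaccharyltransferase, which bring chains into the ER and glycosylate them, 19 were higher and 0 lower, with a median log2 fold change of 0.75. Ostc (1.61 ± 0.21) and Ssr2 (1.39 ± 0.20) had the smallest p, while Sec61a2 (-0.35) and Srp68 (-0.32) had the smallest p on the negative side and were not called. Of 38 other ER folding and redox genes, 22 were higher and 0 lower (median 0.67). Ppic, the gene of cyclophilin C, had 356, 507 and 225 CPM in amputation libraries, against 31.4, 34.1 and 28.5 CPM in sham libraries, and rose by 3.53 ± 0.33, more than all 49 members except P4ha3. Rcn1, a calcium-binding ER protein, rose by 2.22 ± 0.23, and Uggt1 (-0.30) and Creld1 (-0.44) were not called. Of 15 COPI genes, which form the coat of retrograde carriers, 11 were higher and 0 lower (median 0.74), among them Copz2 (1.56 ± 0.22) and Arf4 (1.59 ± 0.26); Arfgap2 stood at -0.69, uncalled. Across all tested genes 20.4% were called higher and 12.3% lower. On the negative side of these 3 lists, 1, 0 and 0 genes had an unadjusted p under 0.05 in edgeR, DESeq2 called 1, 0 and 0 lower, and limma-voom called 0 in each. Without amputation 3, edgeR called 2, 3 and 1 lower. Sec61a2 was also called lower with the replicate block (adjusted p = 0.0418, edgeR) and with the muscle list left out of the library sizes (adjusted p = 0.0462, edgeR).

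Of 19 other COPII and ER exit genes, 7 were higher and 0 lower, with a median of 0.37. The cargo receptors Lman1 (1.13 ± 0.20) and Surf4 (1.31 ± 0.24) had the smallest p among those called higher, and Klhl12 (-0.67 ± 0.21) and Sec24c (-0.34 ± 0.12) did not pass. DESeq2 called 3 of the 19 lower, limma-voom 2, and 3 had an unadjusted p under 0.05 on the negative side in edgeR. Lman1 (1.06) and Surf4 (1.28) were not called without sham 2. The counts of higher genes in these lists fell when a sham library was left out or the muscle covariate was added. So did the count over all tested genes. It went from 2968 to 1566, 1091 and 1359 without sham 1, sham 2 and sham 3, and to 1459 with the covariate. With the covariate they were 11 for the translocon list, 14 for the folding and redox list, 4 for COPI and 2 for COPII. Without sham 1, sham 2 and sham 3 they were 9, 6 and 10 for the translocon list, 15, 12 and 14 for the folding and redox list, 3, 2 and 3 for COPI and 3, 0 and 2 for COPII. Without amputation 1 and amputation 2 they were 5 and 6 for COPI, and without amputation 1 COPII had 2. Klhl12 was called lower by 10 of the 17 alternatives, at -0.60 to -0.92.

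Among targets of the ER stress sensors, more genes were called higher than lower, though the counts changed with the libraries used. Of 31 genes of ER stress and ER-associated degradation, 11 were higher, 4 were lower and 16 were not called, with a median log2 fold change of 0.33. Across all tested genes 20.4% were called higher and 12.3% lower, and the number called lower was near what 12.3% of 31 genes gives. The genes called lower were Atf3 (-1.15 ± 0.20), a stress-induced factor, Atf5 (-0.67 ± 0.13), Cebpb and Wfs1. Nupr1, a small stress-response gene (2.21 ± 0.35), and Hspa13 (0.60 ± 0.13) had the smallest p among those called higher. Herpud1 and Dnajb9, direct targets of the unfolded protein response, stood at 0.01 and -0.02. Both were named after their values were seen, as were Cebpb and Wfs1. Of the 31 log2 values of the list, 22 were positive, so Herpud1 and Dnajb9 do not stand for the list. The counts in this list changed with most libraries left out: 1, 2 and 1 higher and 3, 1 and 2 lower without sham 1, sham 2 and sham 3, 2 and 3 higher and 1 and 3 lower without amputation 1 and amputation 2, and 17 higher and 5 lower without amputation 3. Hspa13 was not called with any of the sham libraries left out (0.56 to 0.62), nor Atf5 without amputation 1 (-0.60) or sham 2 (-0.68). With the muscle covariate, 1 gene of the list was higher and 2 were lower, and Hspa13 (0.43) and Atf5 (-0.59) were not called.

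Markers of several cell types also differed between the groups. Apart from the muscle covariate, their part in the results for the folding genes was not tested. Fibroblast markers (6 genes) summed to 47301 to 116912 CPM in amputation libraries and 5123 to 10354 CPM in sham libraries, with Lum (log2 4.81) and Thy1 (2.08). That sum includes the fibrillar procollagen genes Col1a1 and Col3a1, so it is not separate from the collagen cargo. Of the 6 genes, 4 were called higher and 2 were not called, the lowest log2 value being 0.24. The tenocyte markers Tnmd (3.42) and Scx (1.78) rose. Of the 5 genes in that list, 3 were called higher and 2 were not called. Scx lost its call with any library but amputation 3 left out (1.18 to 2.08) and with the muscle covariate (0.71). Chondrocyte markers (6 genes, Col2a1 among them) summed to 1881 to 9222 CPM in amputation libraries and 44.8 to 82.0 CPM in sham libraries, with Acan at 6.81 and Matn3 at 6.48. Macrophage markers (5 genes) summed to 688 to 880 CPM in amputation libraries and 194 to 248 CPM in sham libraries, with Lyz2 at 2.25 and Cd68 at 2.27. The 4 measured plasma cell markers, from a cell type that also carries a large ER, summed to 139 to 371 CPM in amputation libraries and 30.9 to 64.1 CPM in sham libraries. Of these, Jchain and Sdc1 (2.29) were higher and Mzb1 (-1.58) was not called. Sdc1 lost its call without sham 2 (2.42) and with the muscle covariate (1.22). Mzb1 was called lower without amputation 3 (-3.40) and on log2(FPKM + 1) (-0.65).

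Osteoblast markers (6 genes) summed to 15.8 to 123 CPM in amputation libraries and 45.7 to 182 CPM in sham libraries, and the groups overlapped. Sp7 (1.93), Bglap2 (1.97), Alpl (-0.48) and Ibsp (-0.85) were not called by edgeR, DESeq2 or limma-voom, and 0 of the 5 tested had an unadjusted p under 0.05. With the replicate block Ibsp was called lower (-1.17, adjusted p = 0.0452, edgeR), without amputation 3 Sp7 (2.37) and Bglap2 (2.49) were called higher, and with the muscle covariate Alpl was called lower (-1.14). Adipocyte markers (4 genes) were lower, at 63.8 to 156 CPM in amputation libraries and 431 to 826 CPM in sham libraries, with Plin1 at -2.35 and Adipoq at -1.99. Endothelial markers (4 genes) summed to 351 to 570 CPM in amputation libraries and 758 to 890 CPM in sham libraries. Of the 4, 2 were not called, and Kdr (-0.95) and Vwf (-1.04) were lower. Both lost their calls without amputation 1 (-0.90 and -1.05), with any sham library left out, and with the muscle covariate (-0.48 and -0.51). Vwf also lost its call without amputation 2 (-0.81). Erythroid markers (4 genes) summed to 90.7 to 238 CPM in amputation libraries and 174 to 515 CPM in sham libraries, with Alas2 (-1.43) and Hba-a1 (-1.39) uncalled by edgeR, where both had an unadjusted p under 0.05, and called lower by DESeq2. Both were also called lower without sham 1 (-1.77 and -1.71) or amputation 3. Of the 30 muscle genes none was called by edgeR, where 4 had an unadjusted p under 0.05, or by limma-voom, while DESeq2 called 12 lower. The fits on log2(FPKM + 1) and log2(FPKM + 0.1) called 10 and 11 lower, and edgeR called 5 lower with the replicate block, 30 lower without amputation 3, and 8 higher and 3 lower with the muscle covariate, which is built from this list. Myl3 (-2.53) and Myl2 (-2.37) had the smallest p, and both were called with the block (-3.26 and -3.21; adjusted p = 0.0390 for both, edgeR) and without amputation 3 (-4.07 and -4.12). No list had a marker gene at 0 in all 6 libraries.

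Exons of 15 members overlap an annotated gene on the other strand. They are Creb3, Ddit3, Eif2ak3, Plod2, Plod3, Fkbp10, Fkbp14, Ppib, P3h2, Colgalt1, Sec23a, Kdelr3, Hsp90b1, Pdia3 and Pdia6. The strand setting of the counting was not given, so reads of such partners may not be told apart and these values are uncertain to that extent. Exons of 4 members (Plod3, Tmem38b, Hsp90b1 and Pdia4) overlap a microRNA, an rRNA copy or a processed transcript on the same strand.

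In GRCm38.p6 coordinates, P4ha3 lies on chromosome 7 at 100285489 to 100319701, and Serpinh1 on the same chromosome at 99345375 to 99353239. P3h2 lies on chromosome 16 at 25959284 to 26105813, and Creb3l1 on chromosome 2 at 91982328 to 92024170. Fkbp10 (100415694 to 100424840) and P3h4 (100408467 to 100414716) are neighbours on chromosome 11, and had log2 fold changes of 2.80 and 2.65.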

How the data were processed

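RNA was measured in Achilles tendon of 3 amputation and 3 sham libraries. Per the labels' protocols, extraction used a mirVana kit and libraries came from a strand-keeping TruSeq total RNA kit that depletes ribosomal RNA (Ribo-Zero Gold). Trimmomatic, HISAT2 and build GRCm38.p6 are named in the submitters' processing notes. The sources used here give no counting program, strand setting or version. The deposited table of counts holds whole read counts per gene, not normalized. The deposited FPKM table holds these counts divided by length and library total: the implied length was whole, within 0.01 bases, for 100% of the 15164 genes with counts in all 6 libraries. Groups and replicate numbers were taken from the titles.

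Counts were fitted in R 4.3.3 with edgeR 4.0.16 (filterByExpr, TMM, quasi-likelihood test, Benjamini-Hochberg adjustment over 14561 tested genes, threshold 0.05), leaving 7317 genes untested; the biological coefficient of variation common to all genes was 0.296. A standard error is the size of the log2 fold change over the root of its F statistic. CPM of single genes are scaled by TMM. Summed CPM of gene lists, the CPM worth of 1 read and percentages of counts are of the library total. The closest pair of libraries, sham 1 and 2, had a chi-square of 13.4 per gene, so no library was counted as a duplicate. Deviations from the group means correlated between same-numbered libraries by 0.259, 0.13 and 0.409, each over 0.1. The replicate numbers were therefore treated as pairs in the blocked alternative. The labels state no pairing, and the correlations do not single it out. Amputation 2 correlated better with sham 1 (0.244) than with sham 2, and amputation 1 with sham 2 (0.115) was also over 0.1. Paralog shares and the procollagen ratio were tested with exact permutation over libraries. The 49 members, their 9 role classes and the 16 other lists (procollagen cargo, other COPII, COPI, translocon, folding and redox, ER stress targets, and 10 cell types) were chosen with earlier results of these data known. Named were, per role class, the 2 called members of smallest p in each direction and uncalled members of unadjusted p under 0.05, and, per other list, the 2 genes of smallest p in each direction; further genes were added to describe each class. Sly1, Ighm and Igkc of the lists are not analysed here, and the row named Mia was used for Mia1. The Ctage5 row carries a gene identifier since merged with Mia2. Promoters came from RefSeq. Protein sequences, planned for retrieval signals, were not used here. Alternatives were DESeq2 1.42.0 size factors or Wald test, upper quartile scaling, the muscle list left out of library sizes, limma 3.58.1 (voom, or log2(FPKM + 1) and log2(FPKM + 0.1)), other filters (none, or 10 or more counts throughout a group), a replicate block, a muscle covariate, and leaving out each library. Joins and summaries used pandas 2.3.3 under Python 3.11.15.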

Additional observations from a re-analysis of the deposited data

How the results depend on the processing

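The count of 33 members called higher stayed within 1.5 times under 15 of the 17 alternatives, and it ranged from 18 (without sham 2) to 38 (without amputation 3) when a library was left out. Normalization and filters left it at 33, DESeq2's Wald test gave 35, the replicate block 33 and the muscle covariate 26. The count of 3 members called lower was 1 with upper quartile scaling, 1 with the muscle covariate, and 1 to 6 with a library left out. With the replicate block it was 4, since Tmem38b was added; the block changed no other member's call. DESeq2's Wald test, limma-voom and both FPKM fits also called Tmem38b lower. Of the direction changes, Atf4 stood at -0.083 with the muscle covariate and, with a library left out, between -0.037 (without amputation 2) and 0.19 (without amputation 1), P4ha2 at -0.37 with the covariate, and Sar1b at 1.01 with the covariate, 0.13 without amputation 1, 0.14 without amputation 2 and -1.65 without amputation 3. Of these values only the last was called, and the cause was not tested. The number of paralog shares without overlap was 17 to 20, and the procollagen ratio 4.67 to 6.41, when a library was left out. These last 2 checks, and the same settings for the other lists, were chosen after seeing the data. The muscle covariate rests largely on amputation 3, the only amputation library with a high muscle share, and 3 libraries per group limit the precision of each fold change. Across all genes, 2968 were higher and 1789 lower. Without amputation 1, 2 and 3, 1585, 1863 and 4212 were higher and 688, 893 and 4392 lower. Without sham 1, 2 and 3, 1566, 1091 and 1359 were higher and 670, 436 and 798 lower. With the muscle covariate, 1459 were higher and 619 lower.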
